A study of Mus musculus with 6 samples.

Results

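Protocadherins are cell-surface proteins of the cadherin superfamily, and the 71 entries of the count tables whose symbol starts with Pcdh were taken here, of 23282 entries in all. They were grouped by symbol into 15 Pcdha entries, 22 Pcdhb entries, 22 Pcdhg entries and 12 non-clustered genes, which carry Pcdh and a number. The counts came from 1 forebrain hemisphere of each of 6 male C57BL/6J mice, 8 to 10 weeks old, with 1 library per mouse and without olfactory bulb and cerebellum. In 3 mice, labelled WAS, water avoidance stress had been applied for 1 h, which means that the mouse stood on a small platform surrounded by water. For the 3 controls, the platform stood in a dry container for an equal time. The labels name no transgene, deletion or drug in either group.

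In the clustered families, which lie side by side on chromosome 18 of the mouse, each neuron switches on a small and varying set of isoforms, with the chromatin proteins CTCF and cohesin taking part in promoter choice. Proteins of matching isoforms bind each other between cells, and this recognition lets the branches of a neuron avoid each other. A Pcdha or Pcdhg transcript joins its own first exon, which encodes the extracellular part, to constant exons shared by the whole cluster, whereas a Pcdhb gene is a single exon with an end of its own. Non-clustered protocadherins are separate genes, sorted into delta-1 and delta-2 families by their cytoplasmic part, and are known for expression that differs between brain regions and cortical layers.

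The libraries held between 9248520 and 10502029 counts, and the protocadherin entries took between 0.192% and 0.206% of them. QuantSeq, the method used, reads the end of a polyadenylated transcript, so that a count stands for a transcript end and is not divided by transcript length. Levels are given as CPM, the count in a library per 1000000 counts of its TMM-scaled total. Differences are log2 fold changes of WAS relative to control with their standard error (SE). Inside the tables, the count columns were headed WC in the libraries labelled WAS and WS in the libraries labelled control, without a definition in the sources used here. The groups follow the sample labels, and exchanged labels would reverse each direction. In bulk tissue, fewer cells of a type and less RNA per cell cannot be told apart.

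The libraries also differed in brain region markers. The 8 thalamus markers summed to 762, 328 and 648 CPM in WAS replicates 1, 2 and 3 against 319 to 341 CPM in the control libraries. The 8 striatum markers summed to 159.6, 1931 and 370.2 CPM against 976 to 1362 CPM. Thus WAS replicates 1 and 3 stood apart from the other 4 libraries, with more thalamus and less striatum signal. Of the 8 midbrain and hindbrain markers, whose sum was 40.9, 9.51 and 65.3 CPM against 7.53 to 8.73 CPM, 1 was at 0 in every library. The dopamine transporter gene Slc6a3 had 107, 0 and 100 counts against 0, 3 and 3. The 6 neuron markers summed to between 5754 and 6176 CPM in the WAS libraries. In the control libraries they summed to between 6458 and 7148 CPM, without overlap. Their log2 fold changes were -0.26 for Snap25, -0.24 for Syt1 and -0.36 for Rbfox3, but -0.012 for Tubb3, -0.055 for Stmn2 and 0.070 for Map2. The sums also did not overlap for hippocampus, at 74.1 to 109.4 CPM against 55.1 to 72.3 CPM, and for oligodendrocyte precursors, at 57.9 to 62.8 CPM against 51.2 to 56.5 CPM. Over 7 cortex markers, all with a log2 fold change below 0, the sums were 768 to 836 CPM in the WAS libraries and 859 to 1006 CPM in the control libraries, again without overlap, and 2 of the 7 were lower at an unadjusted p under 0.05. The 6 cerebellum markers summed to 133 to 160 CPM in the WAS libraries and 144 to 157 CPM in the control libraries. Among them, Gabra6, which defines cerebellar granule cells, had 0 counts in 5 libraries and 1 count in WAS replicate 3. Pcp2, of the same list, had 193, 197 and 195 counts against 196, 191 and 252.

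The first question was whether the entries of the Pcdha and Pcdhg clusters are separate measurements. They were not equal to each other, and nearly all counts of a cluster stood in a single entry. In the Pcdha cluster this was Pcdhac1, one of the C-type isoforms, with 2605, 2323 and 2485 counts in WAS replicates 1, 2 and 3 and 2998, 2794 and 2496 counts in control replicates 1, 2 and 3. These made up between 97.7% and 99.0% of the counts of the cluster. The remaining 14 Pcdha entries together held between 28 and 70 counts in a library, and 6 of them had at most 3 counts in every library. Pcdha11 had the most of these, with 16, 23 and 20 counts against 34, 20 and 17. Pcdhac2, a C-type isoform known for its role in the spacing of serotonergic axons, had 0, 2 and 2 counts against 1, 0 and 2, and the entries with the fewest counts were Pcdha1, with 3 counts in control replicate 1 and 0 elsewhere, and Pcdha7, with 0 counts in the WAS libraries and 2, 1 and 0 in the control libraries.

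In the Pcdhg cluster the counts stood in Pcdhga9, with 4643, 5363 and 5065 counts in the WAS libraries and 6119, 6111 and 5356 counts in the control libraries. This was between 95.1% and 96.9% of the counts of the cluster. The other 21 entries held between 174 and 256 counts together, and Pcdhga3 led them with 91, 86 and 115 counts against 105, 86 and 69. Pcdhga11 followed with 40, 32 and 38 counts against 55, 53 and 47. The C-type isoforms were close to 0. Pcdhgc4, known to be needed for the survival of inhibitory neurons, had 0, 4 and 4 counts against 0, 3 and 3. Pcdhgc3, which is known as a regulator of dendrite branching, had 0 counts in all WAS libraries and 0, 2 and 3 counts in the control libraries. Pcdhga1 had the fewest, 1 count in control replicate 2 and 0 elsewhere.

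**Figure D1:**
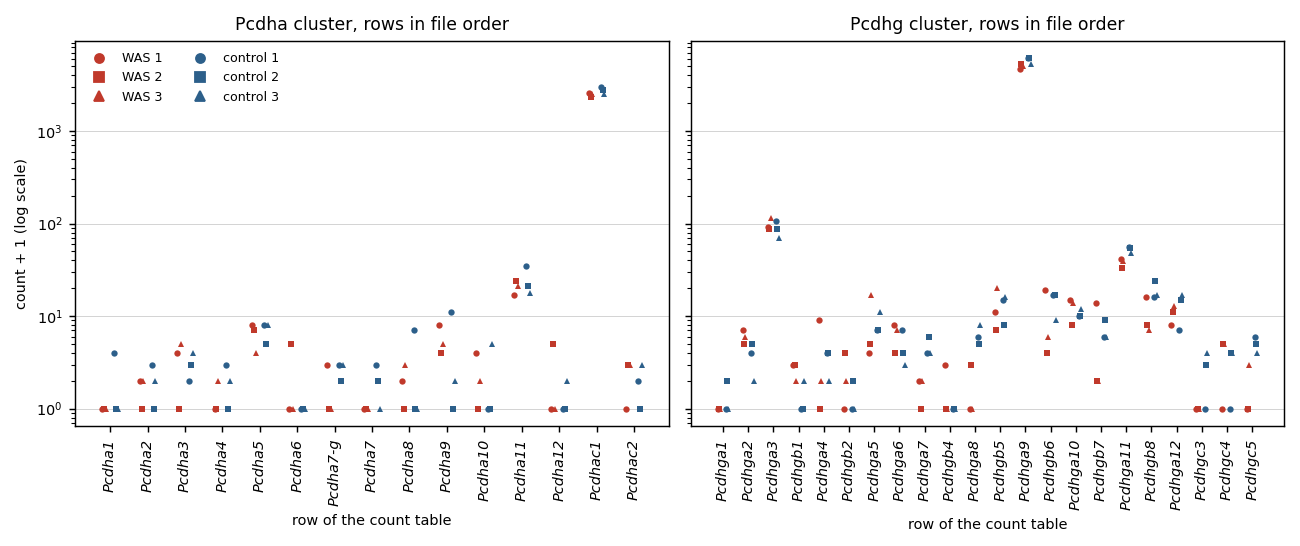
Counts plus 1 on a log axis for the 15 Pcdha entries (left) and the 22 Pcdhg entries (right), 1 point per library, red for WAS and blue for control, with a shape for each replicate number. In all 6 libraries Pcdhac1 and Pcdhga9 stand at or above 2323 counts, and every other entry of these clusters stays at or below 115 counts.

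The transcript sequences of GENCODE M21 show how far the ends are shared. For the 13 Pcdha symbols with a protein-coding transcript, 100% of the stretches of 75 bases, the read length, in the last 500 bases also occurred in Pcdhac1 or, for Pcdhac1 itself, in other Pcdha genes. The stretch shared with Pcdhac1 was 2860 or 2861 bases long. In the Pcdhg cluster, 21 of 22 symbols had over 90% of these stretches in common with other genes, and for Pcdhgb8 the share in common with any other gene, 4 genes outside the cluster included, was 71.1%. A single stretch of 2116 bases was identical between Pcdhga9 and 20 other Pcdhg transcripts. In contrast, 21 of the 22 Pcdhb genes and all 12 non-clustered genes shared 0% with any other gene. The exception was Pcdhb21, of which 89.4% also occurred in another Pcdhb transcript. Reads from the shared ends carry no sequence that tells the isoforms apart. Pcdhac1 and Pcdhga9 are therefore read below as the summed ends of the Pcdha and the Pcdhg cluster, and the counts give no isoform usage for these clusters. Why the deposited tables credit these entries and not others is not stated in the sources used here.

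The Pcdha ends were at 255, 248 and 246 CPM in WAS replicates 1, 2 and 3 and at 285, 273 and 256 CPM in the control replicates. All WAS libraries lay below all control libraries, with WAS replicate 1 and control replicate 3 nearly level. The log2 fold change of Pcdhac1, WAS relative to control, was -0.12 (SE 0.079, unadjusted p = 0.152, adjusted p = 0.813 in the quasi-likelihood test of edgeR), so that the difference did not pass the test. Pcdhga9, at 510 ± 59.6 CPM (SD, n = 3) in the WAS libraries and 577 ± 24.3 CPM (SD, n = 3) in the control libraries, had a log2 fold change of -0.18 (SE 0.094, unadjusted p = 0.0851, adjusted p = 0.733). WAS replicate 1 was the lowest at 455 CPM and WAS replicate 2, at 573 CPM, lay within the control range of 549.9 to 597 CPM. Without WAS replicate 2 the Pcdhga9 value was -0.27, with an unadjusted p of 0.00684 and an adjusted p of 0.124. The counts of Pcdhac1 per count of Pcdhga9 ran from 0.433 to 0.561 in the WAS libraries and from 0.457 to 0.490 in the control libraries, with WAS replicate 1 highest and WAS replicate 2 lowest. With the entries of a cluster summed to 1, the log2 fold changes were -0.12 for Pcdha and -0.18 for Pcdhg (SEs 0.079 and 0.091), an analysis chosen after seeing the data.

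Of the low Pcdhg entries tested, Pcdhga11 was the only one with all WAS libraries below all control libraries, at 3.70 ± 0.255 CPM (SD, n = 3) against 5.08 ± 0.222 CPM (SD, n = 3), a log2 fold change of -0.46 (SE 0.24, unadjusted p = 0.0869, adjusted p = 0.734). For Pcdhga2 all WAS libraries lay above in CPM, on 6, 4 and 5 counts against 3, 4 and 1. The log2 fold changes of the 12 Pcdhg entries tested ran from -0.91 for Pcdhgb8, on 15, 7 and 6 counts against 15, 23 and 16, to 0.91 for Pcdhga2. None of the 12 had an unadjusted p below 0.05 in the edgeR fit, but Pcdhga11 and Pcdhgb8 did with limma on quantile-normalized counts, and Pcdhgb6, Pcdhgb7 and Pcdhgb8 did without WAS replicate 1.

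Pcdhb genes have separate ends, and their counts can be read gene by gene except for Pcdhb21. Of the 22 genes, 19 passed the filter on low counts, Pcdhb1 had 0 counts in all libraries, and Pcdhb6 and Pcdhb8 had at most 3. The cluster summed to 97.4 ± 8.82 CPM (SD, n = 3) in the WAS libraries and 101.6 ± 11.6 CPM (SD, n = 3) in the control libraries. Pcdhb7, Pcdhb17, Pcdhb20 and Pcdhb9 together took 47.4% of the counts of the cluster. Pcdhb7 had 127, 146 and 120 counts against 179, 159 and 135. Pcdhb17 had 94, 147 and 105 counts against 151, 155 and 104. In both genes the groups overlapped, and WAS replicate 2 was the highest WAS library.

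Pcdhb20 had 92, 157 and 113 counts in the WAS libraries and 129, 136 and 114 in the control libraries. Pcdhb9 had 60, 86 and 80 counts against 80, 91 and 75, and Pcdhb19, the next by mean CPM, had 48, 71 and 59 against 63, 53 and 58. In Pcdhb17, Pcdhb20, Pcdhb9 and Pcdhb19, WAS replicate 1 was the lowest and WAS replicate 2 the highest of all 6 libraries in CPM. The log2 fold changes were -0.22 for Pcdhb7, -0.19 for Pcdhb17, -0.016 for Pcdhb20, -0.078 for Pcdhb9 and 0.078 for Pcdhb19, with standard errors of 0.17, 0.22, 0.22, 0.22 and 0.24. The sign of Pcdhb20 turned around with total-count scaling and without any of 3 single libraries, and those of Pcdhb9 and Pcdhb19 without 1 library each. In the edgeR fit on all 6 libraries, none of these 19 reached an unadjusted p below 0.05, but Pcdhb4 did without WAS replicate 2 and Pcdhb16 without control replicate 3.

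The other tested Pcdhb genes lay between 0.415 and 5.77 CPM as means of the 6 libraries. WAS and control libraries were fully separated for Pcdhb14, with 59, 30 and 60 counts against 66, 71 and 63, or -0.40 on the log2 scale (SE 0.27). The same held for Pcdhb2, whose 5, 5 and 8 counts against 4, 3 and 0 are too few to give a fold. Pcdhb4 varied most between libraries, with 18, 4 and 33 counts against 8, 6 and 11, and was highest in WAS replicates 1 and 3. Pcdhb16 had 40, 46 and 61 counts in the WAS libraries and 76, 93 and 26 in the control libraries, so that its lowest and highest libraries were both control libraries. The median log2 fold change of the 19 Pcdhb genes was -0.016, with 8 above 0 and 11 below 0, and the median of all 15239 genes tested was 0.00088.

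**Figure D2:**
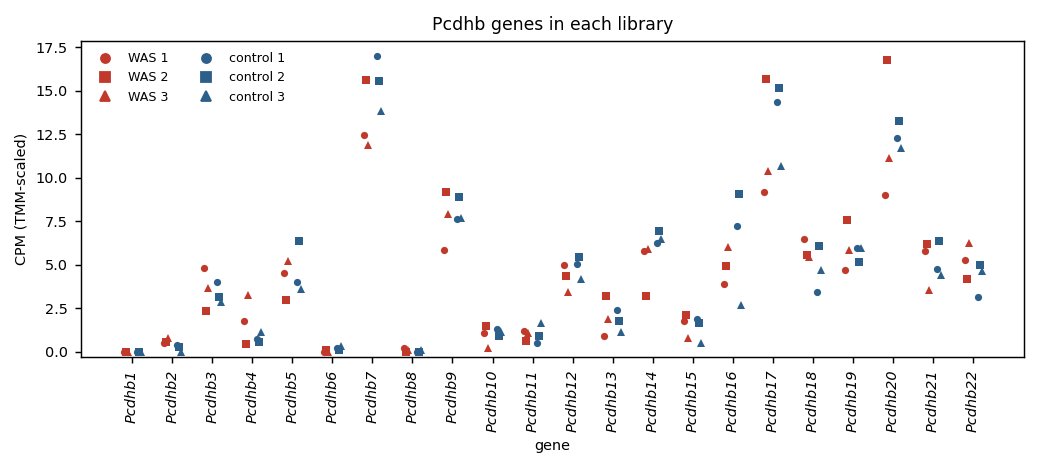
Level of each of the 22 Pcdhb genes in CPM, 1 point per library, red for WAS and blue for control, with a shape for each replicate number. The groups overlap in Pcdhb7, Pcdhb17, Pcdhb20 and Pcdhb9, and WAS replicate 2 (red squares) is the highest library in Pcdhb9, Pcdhb17, Pcdhb19 and Pcdhb20.

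Of the 12 non-clustered genes, 11 were tested. Pcdh12, known as a cadherin of endothelial cells, had 0 counts in 4 libraries and 6 and 1 counts in control replicates 2 and 3. In Pcdh19, Pcdh20, Pcdh8 and Pcdh18, WAS replicates 1 and 3 were the highest libraries. The promoter sequences of the first 3 are given because their levels are described next, and that of Pcdh18 is left out. They are the 250 bases before the transcription start site in RefSeq (GRCm38.p6), written 5′ to 3′ on the strand of the gene. Capitals mark matches on either strand to the CCAAT box (CCAAT), the TATA box (TATAAA) and the GC box (GGGCGG).
Pcdh19 (chrX:133688994-133689243, minus strand): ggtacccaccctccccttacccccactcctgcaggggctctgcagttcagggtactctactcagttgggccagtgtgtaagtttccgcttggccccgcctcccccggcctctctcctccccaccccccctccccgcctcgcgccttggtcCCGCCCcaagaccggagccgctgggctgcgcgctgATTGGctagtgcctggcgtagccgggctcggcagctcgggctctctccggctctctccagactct
Pcdh20 (chr14:88471397-88471646, minus strand): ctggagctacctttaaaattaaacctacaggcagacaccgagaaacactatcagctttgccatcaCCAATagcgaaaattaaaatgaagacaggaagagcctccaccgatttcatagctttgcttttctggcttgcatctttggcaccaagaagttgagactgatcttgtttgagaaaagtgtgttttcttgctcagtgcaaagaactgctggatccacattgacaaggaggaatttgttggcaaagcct
Pcdh8 (chr14:79771313-79771562, minus strand): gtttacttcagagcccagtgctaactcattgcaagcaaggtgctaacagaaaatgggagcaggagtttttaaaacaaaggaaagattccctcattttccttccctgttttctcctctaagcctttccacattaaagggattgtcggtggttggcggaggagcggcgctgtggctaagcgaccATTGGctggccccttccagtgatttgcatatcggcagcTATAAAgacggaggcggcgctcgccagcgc
In windows of 300 bases, which run on for 50 bases past the start site, a CCAAT box occurred in 37.4%, a TATA box in 13.6% and a GC box in 35.7% of the 32851 promoters of the table. All 3 held a CCAAT box, as did the promoters of Pcdh9, Pcdh10, Pcdh15, Pcdh17 and Pcdh18 but not that of Pcdh7, so that this match does not set the 3 genes apart. No match was found in any of them for the cAMP response element TGACGTCA (1.79% of all promoters), the EGR motif GCGTGGGCG (0.612%) or a strict form of the CTCF core motif (0.0365%). In the windows of these genes the GC content was 67.7% for Pcdh19, 43.7% for Pcdh20 and 54.3% for Pcdh8, and the median of all promoters was 52.7%. By GENCODE M21 (GRCm38, the assembly also called mm10), Pcdh19 spans chrX:133582860-133688987, Pcdh20 chr14:88464743-88471396 and Pcdh8 chr14:79766775-79771312, all on the minus strand.

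Pcdh19 is a delta-2 protocadherin that acts together with N-cadherin, and its loss in some of the cells of a heterozygous female causes an epilepsy. It had 1221, 657 and 1537 counts in WAS replicates 1, 2 and 3 against 689, 765 and 794 counts in the control replicates. In CPM, these were 119.6, 70.2 and 151.9 against 65.6, 74.8 and 81.5. WAS replicates 1 and 3 were above all control libraries, and WAS replicate 2 lay inside the control range. The log2 fold change was 0.62 (SE 0.21, unadjusted p = 0.0140, adjusted p = 0.585 in the quasi-likelihood test of edgeR), a fold change of 1.54. Pcdh19 was thereby the only one of the 45 protocadherin entries tested to meet the criteria used here for a call, which ask for at least a 1.5-fold difference in either direction together with an unadjusted p below 0.05. Of all genes tested, 2.49% met them. Without WAS replicate 2 its log2 fold change was 0.88 (adjusted p = 0.000816), without WAS replicate 3 it was 0.36 (unadjusted p = 0.0919), and without control replicate 1 it was 0.54 (unadjusted p = 0.0587).

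Pcdh8, also called Arcadlin, is a delta-2 protocadherin that neuronal activity is known to induce and that drives N-cadherin from synapses into the cell. It had 295, 250 and 444 counts in the WAS libraries against 231, 221 and 257 counts in the control libraries. In CPM the WAS libraries were at 28.9, 26.7 and 43.9 and the control libraries at 22.0, 21.6 and 26.4. The groups did not overlap, but WAS replicate 2 and control replicate 3 were nearly level, and WAS replicate 3 was far above the other 5 libraries. The log2 fold change was 0.51 (SE 0.18, unadjusted p = 0.0173, adjusted p = 0.594), and 0.25 without WAS replicate 3. The unadjusted p was 0.115 without WAS replicate 3, 0.0594 and 0.0644 without control replicates 1 and 2, and 0.0680 with limma. Pcdh8 met the criteria for a call in the other edgeR fits with a library left out. These gave 0.60 without WAS replicate 1 (unadjusted p = 0.00916) and 0.61 without control replicate 3 (unadjusted p = 0.0177). Without WAS replicate 2 the value was 0.64 (unadjusted p = 0.00229, adjusted p = 0.0621).

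Pcdh20 had 424, 117 and 397 counts against 243, 138 and 183. Its level in CPM was 41.5, 12.5 and 39.2 in the WAS libraries and 23.1, 13.5 and 18.8 in the control libraries. WAS replicate 2 was the lowest and WAS replicates 1 and 3 the highest of all 6, a 3.32-fold range. The log2 fold change of 0.75 (SE 0.35, unadjusted p = 0.0561, adjusted p = 0.697) did not pass the test, and without WAS replicate 2 it was 1.13 (adjusted p = 0.00274). Pcdh20 met the criteria for a call with total-count scaling (unadjusted p = 0.0477), without the filter on low counts (unadjusted p = 0.0248), with the replicate block (unadjusted p = 0.00597) and without control replicate 1 (unadjusted p = 0.0479). Among the tested non-clustered genes Pcdh20 and Pcdh19 had the largest variation over the 6 libraries, with coefficients of variation of 51.3% and 36.6%.

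In Pcdh19, Pcdh20 and Pcdh8, the libraries highest in CPM, WAS replicates 1 and 3, were those highest in the summed thalamus markers, of which 7 of 8 had a log2 fold change above 0 and 4 met the criteria for a call. Tcf7l2, which defines thalamic neurons in the adult forebrain, had 2357, 388 and 1729 counts against 384, 214 and 383. The striatum sum was lowest in the same libraries, where Adora2a had 5 and 73 counts and 465 in WAS replicate 2. The 6 markers of meningeal fibroblasts, all with a log2 fold change above 0, were also highest there, with sums of 186, 137 and 197 CPM in the WAS libraries against 89.6 to 151 CPM, and 2 met the criteria for a call. The 6 astrocyte markers summed to 1581, 1479 and 1685 CPM against 1378 to 1513 CPM, and 2 of them were higher at an unadjusted p under 0.05. The part of these markers in the values of Pcdh19, Pcdh20, Pcdh8 and Pcdh18 was not tested.

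**Figure D3:**
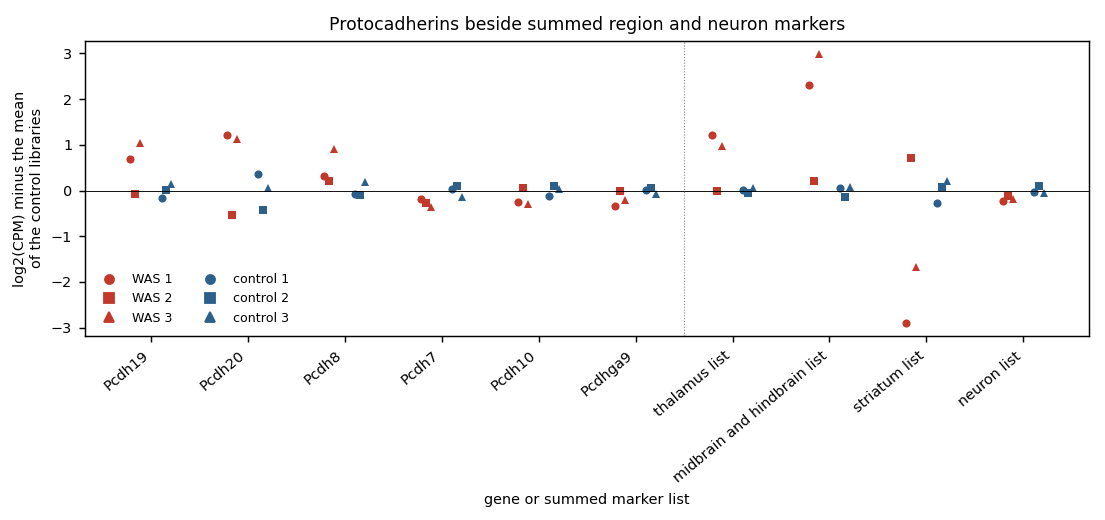
log2 CPM minus the mean of the control libraries for 6 protocadherin entries and 4 summed marker lists, 1 point per library, red for WAS and blue for control, with a shape for each replicate number. WAS replicates 1 and 3 (circle and triangle) lie above WAS replicate 2 (square) for Pcdh19, Pcdh20, Pcdh8 and the thalamus and midbrain lists and below it for Pcdh10, Pcdhga9 and the striatum list.

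Pcdh18, a delta-2 protocadherin that binds the adaptor Dab1, had 66, 43 and 66 counts against 43, 35 and 45, again with the highest libraries WAS replicates 1 and 3. Its log2 fold change was 0.54 (SE 0.26, unadjusted p = 0.0608). Pcdh10 and Pcdh17, the delta-2 genes with the most counts, went other ways. Pcdh10, which takes part in synapse elimination and in the outgrowth of striatal axons, was at 147.1, 184 and 144 CPM against 163, 187 and 179 CPM, with WAS replicates 1 and 3 lowest. Its log2 fold change was -0.16 (SE 0.11) and, without WAS replicate 2, -0.28 (unadjusted p = 0.00776, adjusted p = 0.133). Pcdh17, known from corticostriatal synapses, was at 221 ± 5.06 CPM (SD, n = 3) in the WAS libraries and 209 ± 24.1 CPM (SD, n = 3) in the control libraries, with a log2 fold change of 0.075 (SE 0.094) that was -0.0077 without control replicate 1.

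Among the delta-1 genes, Pcdh7, whose cytoplasmic part binds protein phosphatase 1, was the only one past an unadjusted p of 0.05. It had 1198, 1027 and 1043 counts against 1424, 1460 and 1175, or 117.4, 109.8 and 103.1 CPM against 135.5, 142.7 and 120.6 CPM. The groups did not overlap. The log2 fold change was -0.27 (SE 0.094, unadjusted p = 0.0139, adjusted p = 0.585), and it stayed between -0.34 and -0.22 whichever single library was dropped. The unadjusted p rose to 0.0568 without WAS replicate 3, to 0.0689 without control replicate 2 and to 0.0620 with limma on quantile-normalized counts. At a fold change of 0.828 it did not reach 1.5 in either direction. The sum of the neuron markers (5754 to 6176 CPM against 6458 to 7148 CPM) also lay lower in all WAS libraries. So did that of 7 cortex markers (768 to 836 CPM against 859 to 1006 CPM). Not every neuron marker was lower, as Map2 had a log2 fold change of 0.070. The part of these sums in the Pcdh7 value was not tested.

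Pcdh9, which is linked to the structure of sensory cortex, was at 343 ± 41.7 CPM (SD, n = 3) against 342 ± 38.4 CPM (SD, n = 3), a log2 fold change of 0.0050 (SE 0.11) whose sign turned around without WAS replicate 1 or control replicate 3. Pcdh11x, an X-linked delta-1 gene, was at 65.9 ± 4.86 CPM (SD, n = 3) against 60.5 ± 2.84 CPM (SD, n = 3), with a log2 fold change of 0.12 (SE 0.095). Neither difference passed the test. Pcdh1, with 40, 33 and 31 counts against 41, 49 and 51, had a log2 fold change of -0.40 (SE 0.27, unadjusted p = 0.157, and 0.0356 with limma). Pcdh15, a part of the tip links of inner ear hair cells, had 197, 105 and 147 counts against 155, 125 and 130, a difference of 0.16 on the log2 scale (SE 0.20). Without WAS replicate 1 this became -0.063.

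**Figure D4:**
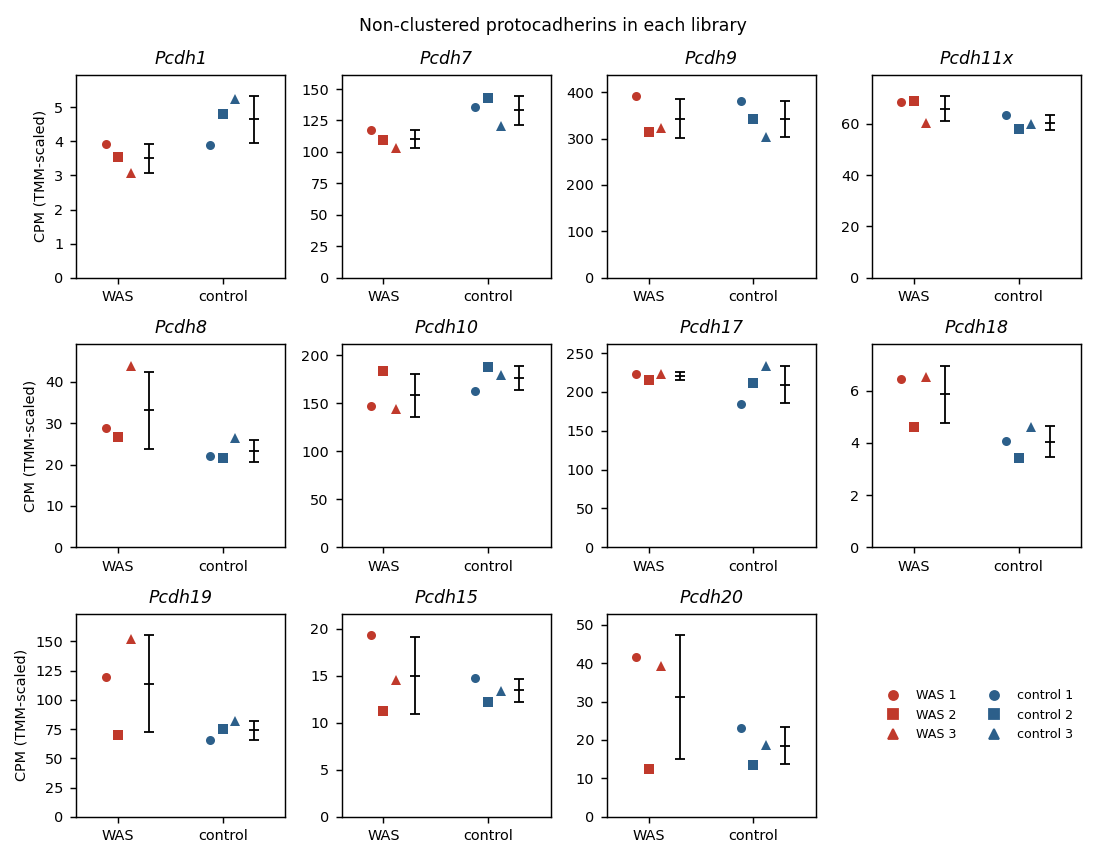
Level in CPM of the 11 non-clustered protocadherins tested, 1 point per library with the mean and SD of each group (n = 3) in black, each panel starting at 0. Groups do not overlap in Pcdh8 and Pcdh7, and WAS replicate 2 lies within the control range in Pcdh19 and below it in Pcdh20.

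Over all protocadherin entries, 45 of 71 passed the filter, and 26 had too few counts. An entry that passed only through the group where it is higher, as can be the case for Pcdhb2 and Pcdhga2, was bound to differ, so the counts that follow describe the entries and support no direction. Of the 45, 21 had a log2 fold change above 0, where 50.2% of all genes tested did. An unadjusted p under 0.05 was reached by 3 entries, Pcdh8, Pcdh19 and Pcdh7, or 6.67%, and by 7.24% of all genes tested. Of these, 2 were higher in the WAS libraries (3.85% of all genes tested were) and 1 was lower (3.4%). An adjusted p under 0.05 was reached by 0 entries and by 0% of all genes tested with edgeR's quasi-likelihood test, and by 0 entries and 22 genes with DESeq2. The groups did not overlap in 7 entries, 3 higher and 4 lower, and in 11.7% of all genes tested. The share of protocadherin entries called was thus near that of all genes for the unadjusted p and for the criteria. All 3 entries with an unadjusted p under 0.05 were non-clustered genes, 27.3% of the 11 tested. In the Pcdha, Pcdhb and Pcdhg clusters, where many entries had few counts, the share was 0%. The median log2 fold change was 0.12 for the 11 non-clustered genes tested, -0.13 for 3 Pcdha entries and -0.096 for 12 Pcdhg entries. The coefficient of variation was larger among the WAS libraries than among the control libraries in 29 of 45 entries, and in 58.1% of all genes tested.

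**Figure D5:**
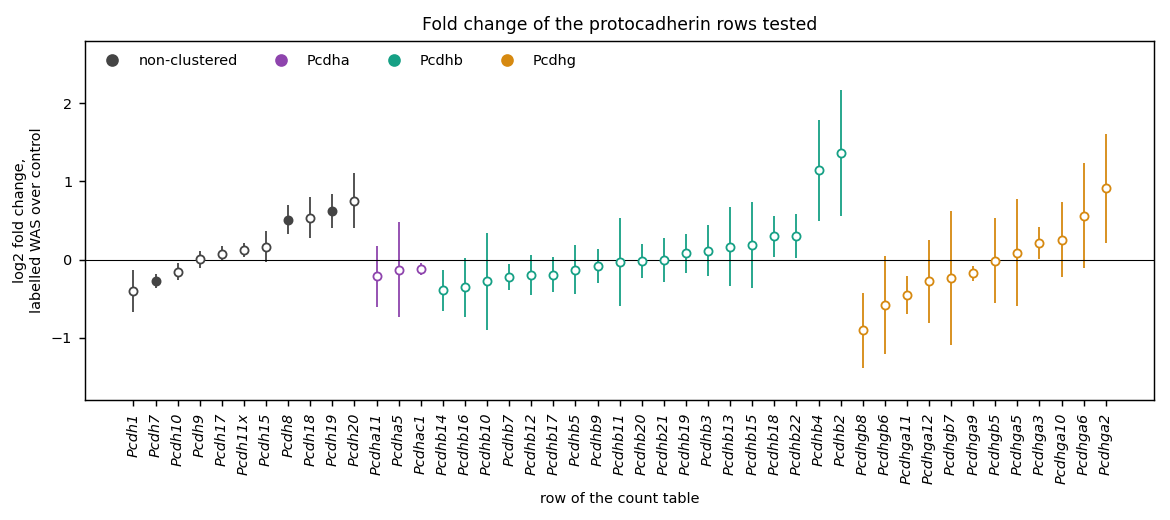
log2 fold change, libraries labelled WAS relative to control, of the 45 protocadherin entries tested, with its standard error, ordered within the 4 groups, from edgeR's fit on 3 libraries a group. Filled points have an unadjusted p under 0.05 (Pcdh7, Pcdh8 and Pcdh19), and entries with few counts carry the longest error bars.

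Genes known to act on protocadherins were read from the same fit, and their counts stand beside the 3.4% of all genes tested that were lower and the 7.24% that differed either way at an unadjusted p under 0.05. Of 22 chromatin regulators of the clusters, among them CTCF, cohesin subunits, DNA methyltransferases and Smchd1, 21 were tested, and 0 had an unadjusted p under 0.05. Hnrnpu, the most abundant of them, was at 339.8 ± 18.3 CPM (SD, n = 3) in the WAS libraries and 349 ± 21.6 CPM (SD, n = 3) in the control libraries. Of 20 cytoplasmic partners, which include the WAVE complex, focal adhesion kinases and protein kinase C, 2 were lower in the WAS libraries at an unadjusted p under 0.05 and 0 were higher. These were Prkca, with 1730, 1778 and 1763 counts against 2098, 2036 and 2081 (log2 fold change -0.20, SE 0.082), and Ptk2, with 795, 794 and 849 counts against 996, 1086 and 836 (-0.22, SE 0.098). Cyfip2, a WAVE complex subunit and the most abundant partner, was at -0.15 (SE 0.077). Of the 7 proteases and their subunits that cleave protocadherins, 0 passed an unadjusted p of 0.05, and Aph1a, a gamma-secretase subunit, was at 0.21 (SE 0.14).

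Among the other cadherins, 17 of 19 classical cadherins were tested, and 2 were lower and 0 higher in the WAS libraries at an unadjusted p under 0.05. Cdh6 met the criteria for a call with 10, 14 and 12 counts against 24, 22 and 36, a log2 fold change of -1.14 (SE 0.41, adjusted p = 0.590 by edgeR). Cdh11 had 576, 445 and 460 counts against 665, 661 and 548 (-0.30, SE 0.11). Of 9 Fat, Dachsous and Celsr cadherins, 7 were tested and Celsr1, a planar polarity gene, met the criteria with 32, 37 and 43 counts against 78, 52 and 54 (-0.67, SE 0.26). Of the 3 calsyntenins, which are cadherins of the synapse, Clstn1 was lower with 5785, 5294 and 5189 counts against 6862, 6630 and 5869 (-0.21, SE 0.080). The medians of the lists lay between -0.14 for the calsyntenins and 0.053 for the Fat, Dachsous and Celsr genes. With each of the 6 libraries left out in turn, an unadjusted p under 0.05 held in 1 fit for Prkca, 2 fits for Ptk2 and 3 fits each for Clstn1 and Cdh11. The part of the neuron and cortex marker sums, which lay lower in all WAS libraries as given for Pcdh7, in the values of Clstn1, Prkca and the other genes of these lists was not tested.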

How the data were processed

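QuantSeq 3′ libraries were read from 1 end over 75 bp. The authors aligned these reads to mm10 with Bowtie2 (version not given in the sources used here), and Bedtools coverage of both unique and multiple alignments gave the counts. The deposited values are these raw read counts per gene symbol, 1 file per library, with no molecular identifiers. Multiple alignments were counted, so near-identical genes can share reads, and whether strand was used is not given in the sources used here.

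Counts were scaled with TMM and tested by the quasi-likelihood test of edgeR 4.0.16 (R 4.3.3) on the 15239 entries whose mean log2(quantile-normalized count + 1) was at least 2, 3 WAS against 3 control libraries, with Benjamini-Hochberg adjustment over these entries. Each SE was derived from the log2 fold change and the F statistic, as their ratio after taking the root of F. Total counts, between 9248520 and 10502029, limit the precision of low entries. The script was tested on simulated counts. Alternatives used limma 3.58.1, DESeq2 1.42.0, other filters and left-out libraries. The study names edgeR with quantile normalization but no test, and its cutoffs on expression and fold change were adopted. The members and lists were chosen with earlier results of these data known. All non-clustered genes tested, the 5 Pcdhb genes highest in mean CPM, the entries with the lowest and highest total counts in the Pcdha and Pcdhg clusters and every member with an unadjusted p under 0.05 were named by rule, with list genes that met the criteria or else the most abundant one. Other genes named, such as Pcdhb14, Pcdhb2, Pcdhb4, Pcdhb16, Pcdhga2, Pcdhga3, Pcdhga11, Pcdhgb8, Pcdha11, Pcdhac2, the Pcdhgc genes, Prkca, Ptk2, Cdh11 and the marker genes, and the motifs were chosen after values were seen. Samples of a group are separate mice. Sums of marker lists other than those given in the text are not reported here, and the cortex sum over 7 markers was added after seeing the data.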

Additional observations from a re-analysis of the deposited data

How the results depend on the processing

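With total-count scaling, 5 protocadherin entries had an unadjusted p under 0.05 and 2 met the criteria of p and fold change, without the low-count filter 5 and 3, and with DESeq2 0 met the criteria, in place of 3 and 1. The shares of all genes with an unadjusted p under 0.05 were 7.66%, 6.90% and 5.82% in these fits, in place of 7.24%. With limma 4 entries had an unadjusted p under 0.05, Pcdhga11, Pcdhgb8, Pcdh1 and Pcdh18, and none of Pcdh7, Pcdh8 and Pcdh19 did. The share of all genes was 5.70% with limma. Total-count scaling gave a log2 fold change of 0.020 for Pcdhb20. In the fits that each left out a library, between 0 and 8 entries had an unadjusted p under 0.05, between 0 and 5 met the criteria and between 0 and 2 passed an adjusted p of 0.05, the last being Pcdh19 and Pcdh20 without WAS replicate 2. Leaving out WAS replicate 3 gave 0 and 0 entries, and leaving out WAS replicate 2 gave 8 and 5. In the latter fit 491 of all genes passed an adjusted p of 0.05. An unadjusted p under 0.05 was reached by 4.29% of all genes in the former fit and by 13.7% in the latter. The criteria were met by 264 and 825 of all genes, so the entry counts moved in the same direction as those of all genes. The genes of regulation, partners and other cadherins with an unadjusted p under 0.05 numbered 6, between 2 and 12 with a library left out and 3 with limma on quantile-normalized counts. With a library left out, the median log2 fold change ran from -0.16 to 0.073 for Pcdhb, from -0.24 to 0.24 for Pcdhg and from -0.32 to -0.033 for Pcdha.

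Of the 45 entries tested, 19 changed sign with some library left out, Pcdha11 (-0.39 to 0.11) and Pcdhgb7 (-2.39 to 0.25) among them. For genes named by rule that changed sign, the values ran from -0.063 to 0.33 for Pcdh15, -0.0077 to 0.16 for Pcdh17, -0.10 to 0.088 for Pcdh9, -0.30 to 0.16 for Pcdhb20, -0.23 to 0.079 for Pcdhb9, -0.12 to 0.23 for Pcdhb19 and -0.086 to 0.0023 for Hnrnpu. The causes were not tested. The call of Pcdh19 was lost with DESeq2 (log2 fold change 0.62), with limma (0.57), without WAS replicate 3 or control replicate 1, and with the replicate block (0.57, unadjusted p = 0.00466), where the fold change fell under 1.5. Over its alternatives the adjusted p of Pcdh19 ran from 0.000816 to 0.9997, and that of Pcdh20 from 0.00274 to 0.9997. Cdh6 lost its call without WAS replicate 1 or control replicate 3, and Celsr1 without WAS replicate 1 or control replicate 1. Clstn1 was also past it neither with total-count scaling (unadjusted p = 0.0553) nor with limma (0.126).

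Whether the replicate numbers pair the libraries is not stated in the sources used here and was not settled. The correlation of deviations between libraries with the same number was low, at 0.066, 0.085 and 0.087. Between different numbers it ran from -0.096 to 0.0094, so that each library correlated best with its own number. With the replicate number as a block, 4 of 45 protocadherin entries had an unadjusted p under 0.05, and 9.37% of all genes did. The criteria were met by 1 entry, Pcdh20, and by 417 of all 15239 genes tested. Over all genes, 49 passed an adjusted p of 0.05 in place of 0. Replacing the Pcdha and Pcdhg entries by the lowest entry of each cluster left counts near 0 that the filter removed, so this alternative gave no cluster value.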
